A study of Setaria viridis with 40 samples.

Results

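The genes described here are PGR5 (Sevir.6G259600), PGRL1_A (Sevir.2G115600) and PGRL1-B (Sevir.9G004600) of *Setaria viridis*, a C4 grass used as a model for maize and sorghum. They are the 3 genes that the study's gene lists name as PGR5 or PGRL1, of 38239 genes in the count table, and all 3 passed the filter on low counts. In plants the stroma-exposed protein PGR5 (proton gradient regulation 5) and the thylakoid membrane protein PGRL1 (PGR5-like photosynthetic phenotype 1) act together in cyclic electron flow around photosystem I (PSI), in which electrons from ferredoxin return to the plastoquinone pool and protons are pumped without net formation of NADPH. These roles are known mainly from *Arabidopsis thaliana*. A second route of cyclic electron flow runs through the chloroplast NADH dehydrogenase-like (NDH) complex. In C4 grasses that use NADP-malic enzyme, such as this one, bundle sheath chloroplasts are rich in PSI and in cyclic electron flow, which supplies ATP to the carbon-concentrating cycle. The study's gene table lists PGRL1_A under mesophyll and PGRL1-B under bundle sheath, and gives no cell type for PGR5.

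Leaves of the accession ME034 were sampled at 13 days of age, and each replicate pooled 2 cm mid-leaf segments from 2 plants. HL leaves received 900 µmol photons of light per square meter and second at a chamber temperature of 31 °C. HT leaves were in a chamber at 40 °C with 250 µmol photons, and control (ctrl) leaves stayed at 250 µmol photons and 31 °C. By the paper's methods the treatments were given in separate chambers, so effects of chamber and treatment cannot be told apart. Each treatment lasted 1, 2 or 4 h, with a further control group at 0 h (ctrl_0h). By the paper's measurements HT leaves warmed gradually from 31 °C and were still below 40 °C at 4 h. Each of the 10 conditions had 4 libraries, replicates A to D, made with a 3′ tag method (QuantSeq) that counts the 3′ end of transcripts, so TPM here is each gene's share of the library's counts, scaled as CPM with no gene length in it. The tissue was whole leaf, and more RNA per cell cannot be told apart from more cells of a type.

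The count columns held 1422507 to 4901131 counts each, with a median of 3694586. Of 40 columns 39 were used, and 14293 genes passed the filter of at least 10 counts in at least 4 libraries. All 4 mesophyll and all 6 bundle sheath markers were above 0 in all 40 libraries. The second sequencing index, a label that divides the libraries in 2, was unevenly spread: all ctrl_2h and ctrl_4h libraries carried AK2941, while 3 of 4 HL_4h and 3 of 4 HT_4h libraries carried AK10751. Scaling of the libraries mattered most for high light. Relative to the control of the same time, the median log2 difference over all tested genes was 0.06 at HL_4h with TMM scaling (edgeR's trimmed mean of M values) and 0.38 with library totals alone, and at HL_2h it was 0.02 with TMM and 0.13 with totals. TPM values are scaled by library totals, and all log2 differences from edgeR below are on the TMM scale unless library totals are named. Shares of all tested genes called are from the TMM fit as well. A gene that rose or fell under a treatment was higher or lower than in the leaves it is compared with. These words do not describe a change over time within the treated leaves.

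PGR5, PGRL1_A and PGRL1-B were abundant transcripts. Averaged over all 40 libraries, PGR5 was at 605 TPM, PGRL1_A at 843 TPM and PGRL1-B at 874 TPM, which placed them at ranks 193, 143 and 137 of 14293 tested genes. Their levels rested on 1145 to 3537 counts per library for PGR5, 1061 to 5189 for PGRL1_A and 1305 to 5758 for PGRL1-B. Ordered by mean TPM, PGR5 was highest at HL_1h, followed by HL_2h, ctrl_0h, HT_1h, HT_2h, ctrl_1h and ctrl_2h, and each of these overlapped its neighbor. Below them stood HT_4h, HL_4h and ctrl_4h, in that order, and the ranges of ctrl_2h and HT_4h, of HT_4h and HL_4h, and of HL_4h and ctrl_4h did not overlap. PGRL1_A was highest at HT_4h, then HT_2h, ctrl_4h, HT_1h, ctrl_2h, HL_4h, ctrl_0h, HL_2h, ctrl_1h and HL_1h, and all 9 neighboring pairs overlapped. PGRL1-B was highest at HT_2h, then ctrl_4h, HT_4h, HT_1h, ctrl_2h and ctrl_0h, followed by HL_4h, ctrl_1h, HL_1h and HL_2h, and only ctrl_0h and HL_4h did not overlap among 9 neighboring pairs. The 2 PGRL1 copies may share reads where their 3′ ends are alike, so their sum is given as well.

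**Figure D1:**
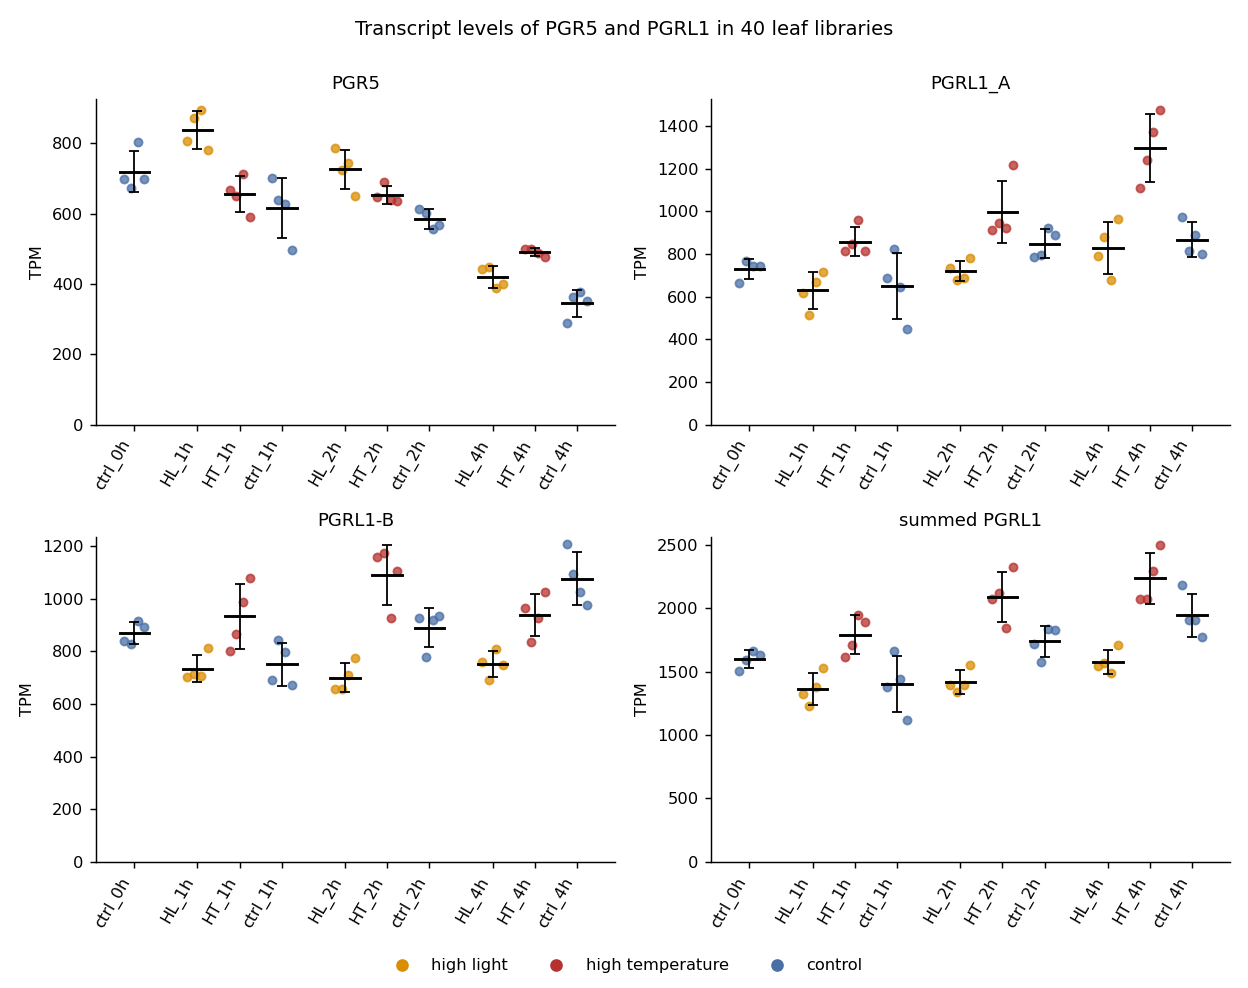
TPM (scaled as CPM, no gene length) of PGR5, PGRL1_A, PGRL1-B and the sum of both PGRL1 copies in each condition of HL, HT and control leaves; points are single libraries (4 per condition), and black lines with bars are the mean and SD. PGR5 in control leaves lay between 289 and 378 TPM at 4 h, below every other condition, while PGRL1_A reached 1108 to 1473 TPM in HT_4h leaves.

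The first question was how the 3 genes responded to high temperature. Against the control of the same time, PGRL1_A was higher in HT leaves at 1 h and at 4 h, and PGR5 was higher at 4 h. PGRL1-B passed the test at no time. PGRL1_A had 815, 845, 958 and 816 TPM in HT_1h leaves, against 687, 823, 645 and 451 TPM in ctrl_1h leaves. In TPM the ranges overlapped at one point only, with ctrl_1h B above HT_1h A and D, and ctrl_1h D was far below the other controls. With edgeR's quasi-likelihood test the log2 difference at 1 h was 0.44 (SE 0.13, adjusted p = 0.0223), so 1 of the 3 genes was called higher, where 5.07% of all tested genes were, and 0 lower, where 5.41% were. The summed PGRL1 copies also rose at 1 h, by 0.39 (SE 0.12, edgeR adjusted p = 0.0253), at 1792 ± 154 TPM in HT_1h and 1402 ± 223 TPM in ctrl_1h leaves (SD, n = 4 each). Without ctrl_1h D the log2 difference of PGRL1_A was 0.36 (edgeR adjusted p = 0.0814) and that of the sum 0.36 (adjusted p = 0.0545), and without one HT_1h column that carries no replicate letter they were 0.39 (adjusted p = 0.0721) and 0.36 (adjusted p = 0.0680). Without HT_1h D the sum was at 0.37 (edgeR adjusted p = 0.0648). Of 11 alternative settings 6 lost the call of PGRL1_A, among them library totals and the fit that kept 1 HT_1h column. Bundle sheath markers moved at this time as well, with 2 of 6 called lower and 0 of 4 mesophyll markers called, and their part in the result was not tested. Within one index label the difference of PGRL1_A was 0.48 for AK10751 and 0.32 for AK2941, on the log2 scale of mean TPM with 2 libraries a side.

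At 2 h of high temperature all 3 genes had higher means, but none passed the test, against 5.38% of genes called higher and 5.37% called lower. PGR5 averaged 654 ± 25.3 TPM in HT_2h and 585 ± 27.8 TPM in ctrl_2h leaves, PGRL1_A 999 ± 145 TPM in HT_2h and 849 ± 68.0 TPM in ctrl_2h leaves, and PGRL1-B 1092 ± 115 TPM in HT_2h and 891 ± 74.6 TPM in ctrl_2h leaves (SD, n = 4 each). The edgeR log2 differences were 0.20 for PGR5 (adjusted p = 0.356), 0.26 for PGRL1_A (adjusted p = 0.204) and 0.34 for PGRL1-B (adjusted p = 0.0930). For PGRL1-B the p-value lay near the threshold at both early times, with 0.35 at 1 h (SE 0.13, edgeR adjusted p = 0.0875), and DESeq2 called the gene higher at 1 h (adjusted p = 0.0332) and at 2 h (adjusted p = 0.0335).

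After 4 h of high temperature PGRL1_A was higher than in controls, and PGRL1-B did not pass the test, with a lower mean. PGRL1_A had 1108, 1240, 1369 and 1473 TPM in HT_4h leaves, against 974, 812, 887 and 798 TPM in ctrl_4h leaves. All 4 HT_4h libraries were above all 4 controls, and the log2 difference was 0.48 (SE 0.13, edgeR adjusted p = 0.0142). PGRL1-B had 966, 835, 927 and 1025 TPM in HT_4h leaves, against 1209, 1096, 1025 and 978 TPM in ctrl_4h leaves. Its ranges overlapped in TPM. On the TMM scale they did not, at 796 to 977 CPM in HT_4h and 1005 to 1116 CPM in ctrl_4h leaves. The log2 difference of PGRL1-B, -0.29, did not pass the test (SE 0.13, edgeR adjusted p = 0.156). The sum of the copies was at 2236 ± 204 TPM in HT_4h and 1945 ± 171 TPM in ctrl_4h leaves (SD, n = 4 each), a log2 difference of 0.10 that did not pass (edgeR adjusted p = 0.627).

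PGR5 had 501, 500, 488 and 478 TPM in HT_4h leaves, against 289, 362, 378 and 351 TPM in ctrl_4h leaves. In TPM the lowest HT_4h library was well above the highest control. On the TMM scale the groups lay closer, at 431 to 507 CPM in HT_4h and 259 to 411 CPM in ctrl_4h leaves. PGR5 was higher than in controls by 0.40 on the log2 scale (SE 0.13, edgeR adjusted p = 0.0450). Its mean was lower at 4 h than earlier in both HT and control leaves. It was at 656 TPM in HT_1h, 654 TPM in HT_2h and 492 TPM in HT_4h leaves. Control leaves had 720 TPM at 0 h and 345 TPM at 4 h. Thus 2 of the 3 genes were called higher at 4 h, where 4.22% of all genes were, and 0 were called lower, where 5.60% were. The call of PGR5 lay close to the threshold. It was lost without ctrl_4h A (0.29, edgeR adjusted p = 0.177), ctrl_4h B (0.43, adjusted p = 0.0710), ctrl_4h D (0.42, adjusted p = 0.0732), HT_4h A (0.36, adjusted p = 0.103) or HT_4h B (0.42, adjusted p = 0.0844), and that of PGRL1_A without ctrl_4h B (0.45, adjusted p = 0.050). The only HT_4h library with the index of the controls, A, had 501 TPM of PGR5 and 1108 TPM of PGRL1_A, against control means of 345 and 868 TPM. With the index as a covariate in limma the differences were 0.58 for PGR5 (adjusted p = 0.00161) and 0.46 for PGRL1_A (adjusted p = 0.0488). The summed mesophyll markers were at 8186 to 13639 TPM in HT_4h and 6192 to 7745 TPM in ctrl_4h leaves, with no overlap, but 0 of the 4 were called. PEPC gave most of the higher sum (mean 4743 TPM in HT_4h and 2220 TPM in ctrl_4h leaves, edgeR adjusted p = 0.119), and DIT1 had a log2 difference of -0.38. Their part in the higher PGRL1_A was not tested.

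High light gave another pattern. Against the control of the same time PGR5 was higher at 1 h, and both PGRL1 copies were lower at 2 h and 4 h. The p-values were lower for PGRL1-B than for PGRL1_A. At 1 h PGR5 had 806, 871, 895 and 781 TPM in HL_1h leaves, against 701, 641, 628 and 496 TPM in ctrl_1h leaves. All HL_1h libraries were above all controls. The log2 difference was 0.47 (SE 0.14, edgeR adjusted p = 0.0144), from 3 HL_1h count columns, since the counts of HL_1h D stand under the header of another condition. One of the 3 genes was thus called higher, where 9.29% of all genes were, and 0 lower, where 9.08% were. Without one HL_1h column that has no replicate letter, PGR5 was at 0.45 (edgeR adjusted p = 0.0523). Within one index label the log2 ratio of its mean TPM was 0.46 for AK10751 (1 HL_1h and 2 ctrl_1h libraries) and 0.37 for AK2941 (3 and 2).

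At 1 h neither PGRL1 copy passed the test under high light. PGRL1_A averaged 629 ± 87.3 TPM in HL_1h and 651 ± 154 TPM in ctrl_1h leaves, and PGRL1-B 735 ± 52.4 TPM in HL_1h and 751 ± 82.0 TPM in ctrl_1h leaves (SD, n = 4 each). The edgeR log2 differences were -0.11 for PGRL1_A (SE 0.14, adjusted p = 0.644) and -0.09 for PGRL1-B (SE 0.14, adjusted p = 0.736).

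By 2 h both copies had fallen. PGRL1-B had 657, 658, 710 and 774 TPM in HL_2h leaves, against 928, 779, 918 and 937 TPM in ctrl_2h leaves. No HL_2h library reached the lowest control. PGRL1-B fell by 0.46 on the log2 scale (SE 0.13, edgeR adjusted p = 0.00690). PGRL1_A had 736, 679, 687 and 780 TPM in HL_2h leaves, against 788, 795, 923 and 890 TPM in ctrl_2h leaves. These groups did not overlap either, though HL_2h D and ctrl_2h A were close. PGRL1_A fell by 0.35 (SE 0.13, edgeR adjusted p = 0.0380), and with its copy the sum fell by 0.40 (SE 0.12, edgeR adjusted p = 0.00751). Thus 2 of the 3 genes were called lower, where 13.9% of all genes were, and 0 higher, where 16.5% were.

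The fall of PGRL1_A at 2 h was near the threshold. Its log2 difference was -0.24 with library totals (edgeR adjusted p = 0.219) and -0.27 with the index as a covariate in limma (adjusted p = 0.121). It was also lost without ctrl_2h C (-0.34, edgeR adjusted p = 0.0717), ctrl_2h D (-0.34, adjusted p = 0.0677), HL_2h B (-0.31, adjusted p = 0.0981) or HL_2h C (-0.34, adjusted p = 0.0671). PGR5 had 786, 725, 743 and 651 TPM in HL_2h leaves, against 615, 602, 556 and 568 TPM in ctrl_2h leaves. All 4 HL_2h libraries were higher in TPM, while on the TMM scale the ranges overlapped. The outcome of the test depended on the scaling, with 0.20 on the TMM scale (SE 0.13, edgeR adjusted p = 0.272) and 0.31 with library totals (adjusted p = 0.0309).

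After 4 h of high light PGRL1-B showed the lowest p-value of the 3 genes. It had 759, 691, 811 and 747 TPM in HL_4h leaves, against 1209, 1096, 1025 and 978 TPM in ctrl_4h leaves. The groups were well apart, with every HL_4h library below every control. PGRL1-B fell by 0.82 on the log2 scale (SE 0.13, edgeR adjusted p = 8.91e-06). With library totals the difference was -0.52 (edgeR adjusted p = 0.000656), and with the index as a covariate in limma it was -0.54 (adjusted p = 0.000800). The only HL_4h library with the index of the controls, C, had 811 TPM, against the control mean of 1077 TPM.

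PGRL1_A and PGR5 at 4 h of high light depended on how libraries were scaled. PGRL1_A had 790, 879, 678 and 965 TPM in HL_4h leaves, against 974, 812, 887 and 798 TPM in ctrl_4h leaves, ranges that overlap. On the TMM scale its HL_4h libraries were at 688, 601, 598 and 778 CPM, all below the control libraries at 874, 827, 966 and 820. It fell by 0.39 on that scale (SE 0.13, edgeR adjusted p = 0.0226), and had -0.07 with library totals (adjusted p = 0.742). The call was also lost without ctrl_4h C (-0.34, edgeR adjusted p = 0.0728) or HL_4h C (-0.35, adjusted p = 0.0594). PGR5 had 442, 450, 388 and 401 TPM in HL_4h leaves, against 289, 362, 378 and 351 TPM in ctrl_4h leaves. Every HL_4h library was higher in TPM, whereas on the TMM scale the ranges overlapped at 307 to 385 CPM in HL_4h and 259 to 411 in ctrl_4h leaves. The log2 difference of PGR5 was -0.04 with TMM (SE 0.13, edgeR adjusted p = 0.846) and 0.28 with library totals (adjusted p = 0.0461), so no direction is given for it.

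With TMM 2 of the 3 genes were called lower at HL_4h, where 12.6% of all genes were, and 0 higher, where 13.5% were. The summed PGRL1 copies fell by 0.61 (SE 0.12, edgeR adjusted p = 0.000115), and had -0.30 with library totals (adjusted p = 0.0377). Bundle sheath markers were also lower at this time, with 3 of 6 called lower and 0 higher (2 and 1 with library totals), and their summed level was 6621 to 9477 TPM in HL_4h and 9841 to 12592 TPM in ctrl_4h leaves. Of the mesophyll markers 1 of 4 was called higher and 0 lower, with sums of 7891 to 11423 TPM in HL_4h and 6192 to 7745 TPM in ctrl_4h leaves. The part of either set in the lower PGRL1-B was not tested.

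**Figure D2:**
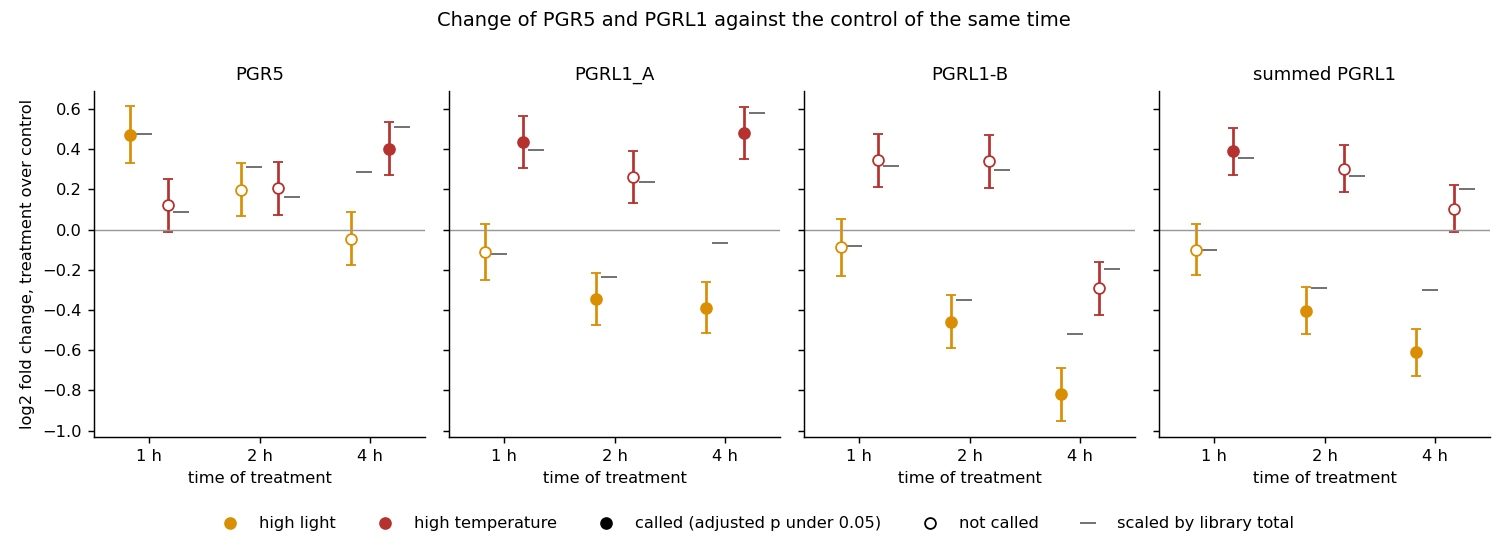
Log2 differences of PGR5, PGRL1_A, PGRL1-B and the summed PGRL1 copies from edgeR (TMM scale), for HL and HT leaves against the control of the same time; bars are the standard error, filled points passed adjusted p below 0.05, and gray dashes give the value with library totals. PGRL1-B reached -0.82 at HL_4h, and PGRL1_A stood on opposite sides of 0 at 4 h, with -0.39 under HL and 0.48 under HT.

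Set directly against each other, HL leaves had less of both PGRL1 copies than HT leaves at all 3 times. At 1 h the log2 differences were -0.55 for PGRL1_A (SE 0.14, edgeR adjusted p = 0.00265) and -0.43 for PGRL1-B (SE 0.14, adjusted p = 0.0205). These were 2 of the 3 genes, where 27.0% of all genes were called in either direction. At 2 h the log2 differences were -0.61 for PGRL1_A (edgeR adjusted p = 0.000233) and -0.80 for PGRL1-B (adjusted p = 7.18e-06), again 2 of the 3 genes, where 40.4% of all genes were called. At 4 h they were -0.87 for PGRL1_A (edgeR adjusted p = 1.57e-06) and -0.53 for PGRL1-B (adjusted p = 0.00169), and PGR5 joined them at -0.45 (SE 0.13, adjusted p = 0.00705), so all 3 genes were called, where 35.7% of all genes were. In TPM the libraries of PGRL1_A were at 790, 879, 678 and 965 in HL_4h and 1108, 1240, 1369 and 1473 in HT_4h leaves, and those of PGR5 at 442, 450, 388 and 401 in HL_4h and 501, 500, 488 and 478 in HT_4h leaves. Neither pair of groups overlapped. Of the bundle sheath markers 2 of 6 were called lower in HL_4h than in HT_4h leaves and 0 higher (PRK -1.26, RBCS_A -0.89), with sums of 6621 to 9477 TPM in HL_4h and 10224 to 11558 TPM in HT_4h leaves, and of the mesophyll markers 2 of 4 were called higher and 1 lower. At 1 h and 2 h, 2 and 1 of the 6 bundle sheath markers were called higher in HL than in HT leaves and 0 lower. Their part in these results was not tested.

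For PGR5 the contrast of HL with HT did not pass at 1 h, with 0.35 (SE 0.14, edgeR adjusted p = 0.0616), nor at 2 h, with -0.01 (adjusted p = 0.974). The call of PGRL1-B at 1 h was lost without HL_1h B (-0.44, edgeR adjusted p = 0.0509), without the HL_1h column that has no letter (-0.44, adjusted p = 0.0519) and without HT_1h D (-0.37, adjusted p = 0.0628). With library totals in edgeR PGR5 passed at 1 h (0.39, adjusted p = 0.0141) and not at 4 h (-0.23, adjusted p = 0.114), while both PGRL1 copies stayed called lower in HL leaves at all 3 times. The summed copies fell in HL relative to HT by 0.49 at 1 h, 0.71 at 2 h and 0.71 at 4 h on the log2 scale (edgeR adjusted p = 0.00319, 7.72e-06 and 7.49e-06).

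Among control leaves PGR5 passed the test against ctrl_0h at 4 h, and the PGRL1 copies did not. PGR5 had 289, 362, 378 and 351 TPM in ctrl_4h leaves, against 699, 674, 805 and 700 TPM in ctrl_0h leaves. The 4 h controls all lay below the 0 h controls by a wide margin. PGR5 fell by 1.07 on the log2 scale (SE 0.13, edgeR adjusted p = 4.30e-08), the only one of the 3 genes called, where 37.4% of all tested genes were. The 1 h controls were at 617 ± 86.5 TPM and the 2 h controls at 585 ± 27.8 TPM (SD, n = 4 each), with log2 differences from ctrl_0h of -0.12 (edgeR adjusted p = 0.666) and -0.31 (adjusted p = 0.141). None of the 3 genes was called in ctrl_1h or ctrl_2h leaves against ctrl_0h leaves, where 6.00% and 8.58% of all genes were. PGRL1-B was at 1077 ± 100 TPM in ctrl_4h and 869 ± 41.9 TPM in ctrl_0h leaves, and PGRL1_A at 868 ± 80.9 TPM in ctrl_4h and 729 ± 45.2 TPM in ctrl_0h leaves (SD, n = 4 each). Neither passed the test on the TMM scale (0.29 and 0.23, edgeR adjusted p = 0.0849 and 0.161), though PGRL1-B did with library totals (0.31, adjusted p = 0.0331). The summed mesophyll markers had 6192 to 7745 TPM in ctrl_4h and 17708 to 25415 TPM in ctrl_0h leaves, and the summed bundle sheath markers 9841 to 12592 TPM in ctrl_4h and 12692 to 16612 TPM in ctrl_0h leaves. Neither sum overlapped between the times, but single genes gave most of each difference. PEPC averaged 12025 TPM in ctrl_0h and 2220 TPM in ctrl_4h leaves, and NADP-ME 6669 and 2801 TPM. DIT1 differed less (1662 and 1342 TPM), and RBCS_A was not lower in ctrl_4h leaves (5740 and 6042 TPM). The part of either set in the lower PGR5 was not tested.

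Whether a treatment effect itself changed over time was tested as a difference of differences. It passed for PGRL1-B only. Its HT effect was lower at 4 h than at 1 h (log2 difference -0.64, SE 0.19, edgeR adjusted p = 0.0390), where 5.03% of all genes were called, and lower at 4 h than at 2 h (-0.63, SE 0.19, adjusted p = 0.0481), where 3.49% were. Its HL effect was lower at 4 h than at 1 h (-0.73, SE 0.19, edgeR adjusted p = 0.0226), where 4.32% were called. None of the 3 genes was called for the HT effect at 2 h against 1 h (2.34% of all genes), the HL effect at 2 h against 1 h (1.76%) or the HL effect at 4 h against 2 h (0.0840%). Leaving out a library ended the first call in 9 of 16 fits, the second in 14 of 16 and the third in 2 of 15. With library totals PGRL1-B passed none of these tests (-0.51, -0.49 and -0.43, edgeR adjusted p = 0.0570, 0.0929 and 0.111).

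The balance between the genes within a library does not depend on how libraries are scaled. PGRL1-B made up 46.6, 40.2, 40.4 and 41.0% of all PGRL1 TPM in HT_4h leaves, against 55.4, 57.4, 53.6 and 55.1% in ctrl_4h leaves. All HT_4h libraries were below all controls. The difference of means was -13.3 percentage points (42.1 ± 3.03% in HT_4h and 55.4 ± 1.59% in ctrl_4h leaves, SD, n = 4 each; exact two-sided permutation test, p = 0.0286, adjusted p = 0.0857). With 4 libraries a side 0.0286 is the smallest p this test can give. Of the 18 ratio comparisons 6 stood at it, and after adjustment 0 were called at 0.05. HT_4h A, at 46.6%, was the one library with the index of the controls, and the other 3 were lower. In HL_4h leaves the share was 49.0, 44.0, 54.5 and 43.6%, which overlapped the controls, with a difference of -7.60 points (exact permutation test, p = 0.0571, adjusted p = 0.129), and HL_4h C, the one with the controls' index, had 54.5%. In the other comparisons the share differed by -3.05 to 2.02 points, apart from HL_4h against HT_4h at 5.71 points (exact permutation test, p = 0.0857, adjusted p = 0.140).

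PGR5 relative to the summed PGRL1 copies was higher in every HL group than in its control. The mean ratio of TPM was 0.620 in HL_1h and 0.443 in ctrl_1h leaves, 0.514 in HL_2h and 0.338 in ctrl_2h leaves, and 0.267 in HL_4h and 0.179 in ctrl_4h leaves. The log2 differences were 0.48 at 1 h, 0.60 at 2 h and 0.59 at 4 h, and at each time the 4 HL libraries lay above the 4 controls. Each gave the smallest p of the exact permutation test (p = 0.0286, adjusted p = 0.0857). Against HT leaves the ratio in HL leaves was higher by 0.75 at 1 h and 0.70 at 2 h (exact permutation test, p = 0.0286 and adjusted p = 0.0857 for both), and by 0.27 at 4 h, where the ranges overlapped (exact permutation test, p = 0.0857, adjusted p = 0.140). In HT leaves against controls the log2 differences were -0.27 at 1 h, -0.10 at 2 h and 0.32 at 4 h, and did not reach the smallest p (exact permutation tests, p = 0.0571, 0.429 and 0.0857). In control leaves alone the ratio was 0.450 at 0 h and 0.179 at 4 h.

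**Figure D3:**
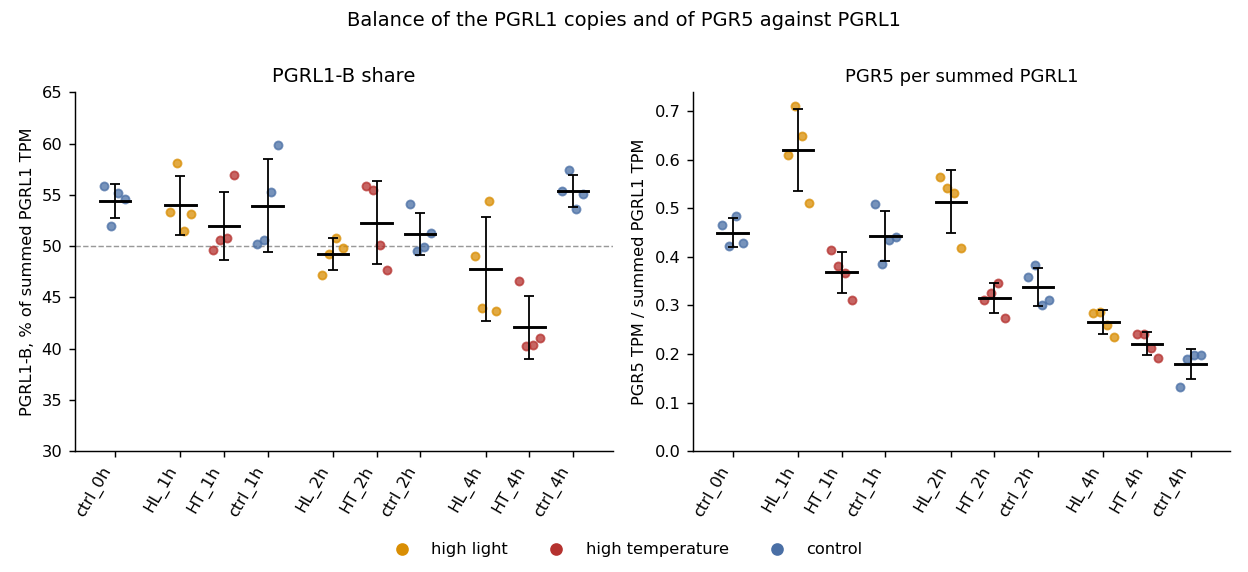
Share of PGRL1 TPM from PGRL1-B (percent) and PGR5 TPM per summed PGRL1 TPM (ratio) in each condition of HL, HT and control leaves; points are libraries (4 per condition), black lines with bars are the mean and SD, and the axis of the share starts at 30%. The share in HT_4h leaves lay between 40.2 and 46.6%, below the ctrl_4h libraries, and PGR5 per PGRL1 was higher in HL than in control leaves at 1, 2 and 4 h.

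The NDH complex carries the other route of cyclic electron flow. The list of the study holds 35 NDH genes, of which 32 were tested. Under high temperature 4 were called higher and 1 lower at 1 h (median log2 difference -0.24, all tested genes -0.02), 5 and 1 at 2 h (0.17), and 5 and 0 at 4 h (0.32, all tested genes 0.01). Of all tested genes 5.07% were called higher and 5.41% lower at HT_1h, 5.38% and 5.37% at HT_2h, and 4.22% and 5.60% at HT_4h, so the NDH counts called higher lay above these shares and those called lower below them. With library totals 4 and 4 NDH genes were called at HT_1h, 4 and 1 at HT_2h, and 9 and 0 at HT_4h. No share of all tested genes was counted with library totals. The genes called higher at 1 h and 2 h were mostly chaperonins, which fold proteins in the chloroplast and are not themselves part of NDH. Cpn60-Beta2_A (Sevir.4G010900) averaged 224 ± 42.6 TPM in HT_1h and 27.5 ± 11.2 TPM in ctrl_1h leaves (SD, n = 4 each), a log2 difference of 3.06 (SE 0.25, edgeR adjusted p = 6.08e-12). Cpn60-Alpha1 (Sevir.3G292100) rose by 2.06 at HT_2h (SE 0.30, edgeR adjusted p = 1.21e-05), while Cpn60-Beta4, which folds the subunit NdhH in Arabidopsis, fell by 1.09 (SE 0.24, adjusted p = 0.00235). Of 6 chaperonins tested 3 were called higher at HT_1h and 3 at HT_2h, against 1 and 2 of 16 NDH subunits. NDF5, an NDH accumulation factor in Arabidopsis, fell by 0.87 at HT_1h (SE 0.21, edgeR adjusted p = 0.00406). At HT_4h 3 of 16 subunits were called higher and 0 lower, among them PnsB3/NDF4 (0.69, SE 0.20, edgeR adjusted p = 0.0195) and NdhU/CRRL (0.56, SE 0.17, adjusted p = 0.0357).

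Under high light NDH genes were called in both directions, at several times no more often than all tested genes. In HL_1h leaves 0 were called higher and 5 lower, with a median of -0.29, where 9.29% of all tested genes were called higher and 9.08% lower. HL_2h leaves had 4 called higher and 3 lower (median -0.11), shares below the 16.5% and 13.9% of all tested genes. HL_4h leaves had 3 higher and 10 lower (median -0.16, all tested genes 0.06), fewer called higher than the 13.5% of all tested genes and more called lower than their 12.6%. CRR41, an assembly factor, rose by 2.14 at HL_2h (SE 0.50, edgeR adjusted p = 0.000996) at low levels of 7.59 TPM in HL_2h and 1.62 TPM in ctrl_2h leaves. The 3 called higher at HL_4h were chaperonins, among them another Cpn60-Alpha1 (Sevir.9G002900, 2.63, SE 0.68, edgeR adjusted p = 0.00322), and 9 of the 10 called lower were NDH subunits. PnsL1, a subunit on the lumenal side, averaged 133 ± 23.4 TPM in HL_4h and 319 ± 102 TPM in ctrl_4h leaves (SD, n = 4 each), a log2 difference of -1.62 (SE 0.25, edgeR adjusted p = 4.25e-06). PnsL2/PQL1 fell by 1.70 (SE 0.31, edgeR adjusted p = 5.93e-05) and NdhS, which binds ferredoxin at the complex in Arabidopsis, by 0.84 (SE 0.16, adjusted p = 0.000118). The scaling changed these counts: with library totals 7 of 32 NDH genes were called higher and 5 lower at HL_4h, and of 16 subunits 1 was called higher and 4 lower, in place of 0 and 9. The median of the subunits was -0.54 with TMM and -0.21 with library totals, where all tested genes had 0.06 and 0.38. The median of all 32 NDH genes was -0.16 with TMM and 0.17 with library totals, below that of all tested genes under both. The shares of all tested genes called were not counted with library totals.

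PSI is the complex around which cyclic electron flow runs. Of 21 PSI genes tested, 0 were called higher and 1 lower at HT_1h, 1 and 1 at HT_2h, and 1 and 0 at HT_4h, where 4.22 to 5.60% of all tested genes were called in each direction. Psa3, a PSI assembly factor, fell by 1.00 at HT_1h (SE 0.23, edgeR adjusted p = 0.00269) and rose by 0.83 at HT_2h (SE 0.23, adjusted p = 0.0129). PsaN, a lumenal PSI subunit, rose by 2.00 at HT_4h (SE 0.66, edgeR adjusted p = 0.0453), and the gene named YCF4 fell by 3.27 at HT_2h (SE 0.69, adjusted p = 0.00142). Both varied widely between libraries of a group, as with 6.55 to 198 TPM of PsaN and 4.71 to 42.7 TPM of YCF4 in ctrl_1h leaves. Under high light 1 gene was called in each direction at HL_1h, below the 9.29% and 9.08% of all tested genes. At HL_2h 2 were called higher and 10 lower, where 16.5% and 13.9% of all tested genes were, with a median log2 difference of -0.55 (all tested genes 0.02). HL_4h leaves had 2 called higher and 12 lower, where 13.5% and 12.6% of all tested genes were, with a median of -1.31 (all tested genes 0.06). Library totals gave 4 and 11 with a median of -1.01 (all tested genes 0.38). PsaG, a small PSI subunit, averaged 3772 TPM in HL_4h and 15900 TPM in ctrl_4h leaves, and fell by 2.38 on the log2 scale (SE 0.26, edgeR adjusted p = 3.05e-09). PsaO fell by 1.96 (SE 0.23, edgeR adjusted p = 2.41e-08). LHCa5, a minor antenna protein that links PSI to NDH in Arabidopsis, rose by 0.85 (SE 0.27, edgeR adjusted p = 0.0163), and Psa3 rose by 0.64 at HL_2h (SE 0.22, adjusted p = 0.0265).

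The cytochrome b6f complex takes up electrons from the plastoquinone pool, and ferredoxin is the electron donor of cyclic electron flow. Of 12 cytochrome b6f genes 0 were called higher and 1 lower at HT_1h, none at HT_2h or HT_4h, 1 higher at HL_1h, 3 higher and 1 lower at HL_2h, and 2 higher and 1 lower at HL_4h. Of all tested genes 4.22 to 5.60% were called in each direction at the HT times, 9.29% higher and 9.08% lower at HL_1h, 16.5% and 13.9% at HL_2h, and 13.5% and 12.6% at HL_4h, and with 12 genes most of these counts lie near those shares. HCF164, a thioredoxin-like protein needed for assembly of the complex in Arabidopsis, rose by 0.90 at HL_2h (SE 0.14, edgeR adjusted p = 5.68e-06), and CcdA, which passes reducing power across the thylakoid membrane for the same process, fell by 0.94 at HL_4h (SE 0.19, adjusted p = 0.000290). The cofactor assembly factors CCB4 and CCB2 had low levels, and CCB4 fell by 1.04 at HT_1h (SE 0.23, edgeR adjusted p = 0.00167), while CCB2 rose by 0.88 at HL_4h (SE 0.29, adjusted p = 0.0202). Of 10 ferredoxin and related genes 1 was called higher at each HT time and at HL_1h, 1 higher and 1 lower at HL_2h, and 2 higher and 1 lower at HL_4h, counts that with 10 genes lie near or below the same shares of all tested genes under high light. FD3 (Sevir.9G021400), a ferredoxin, rose by 1.47 at HT_1h (SE 0.18, edgeR adjusted p = 1.96e-07). The other genes named FD3, Sevir.2G100300 and Sevir.3G230200, did not pass there (0.09 and -0.36, edgeR adjusted p = 0.918 and 0.575). TROL, which tethers ferredoxin-NADP reductase to the thylakoid in Arabidopsis, rose by 0.77 at HT_4h (SE 0.24, edgeR adjusted p = 0.0378). FNR, a gene for that reductase, fell by 0.46 at HL_4h on the TMM scale (SE 0.14, edgeR adjusted p = 0.0128), and was not called lower with library totals. Its TPM ranges overlapped (452 to 573 in HL_4h and 424 to 613 in ctrl_4h leaves), and FNR2 did not pass (0.10, edgeR adjusted p = 0.846). Of 3 genes named FD2, 2 rose under high light, the abundant FD2_A by 0.58 at HL_4h (SE 0.21, edgeR adjusted p = 0.0392; 3705 TPM in HL_4h and 2007 TPM in ctrl_4h leaves) and the scarce FD2_B by 1.81 at HL_2h (SE 0.38, adjusted p = 0.000330; 9.17 to 15.5 TPM in HL_2h and at most 4.53 TPM in ctrl_2h leaves), while the third, Sevir.6G004600, passed at no HL time (0.04, 0.25 and 0.17, edgeR adjusted p = 0.929, 0.412 and 0.605). Over the 6 comparisons the list medians were -0.12 to 0.25 for cytochrome b6f and -0.10 to 0.17 for ferredoxin, and those of all tested genes -0.02 to 0.06. With library totals at HL_4h 6 cytochrome b6f genes were called higher and 1 lower, and 5 ferredoxin genes higher and 0 lower. The list medians were then 0.54 for cytochrome b6f and 0.47 for ferredoxin, and that of all tested genes 0.38. The shares of all tested genes above are from TMM and were not counted with library totals, so these counts cannot be set against them.

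**Figure D4:**
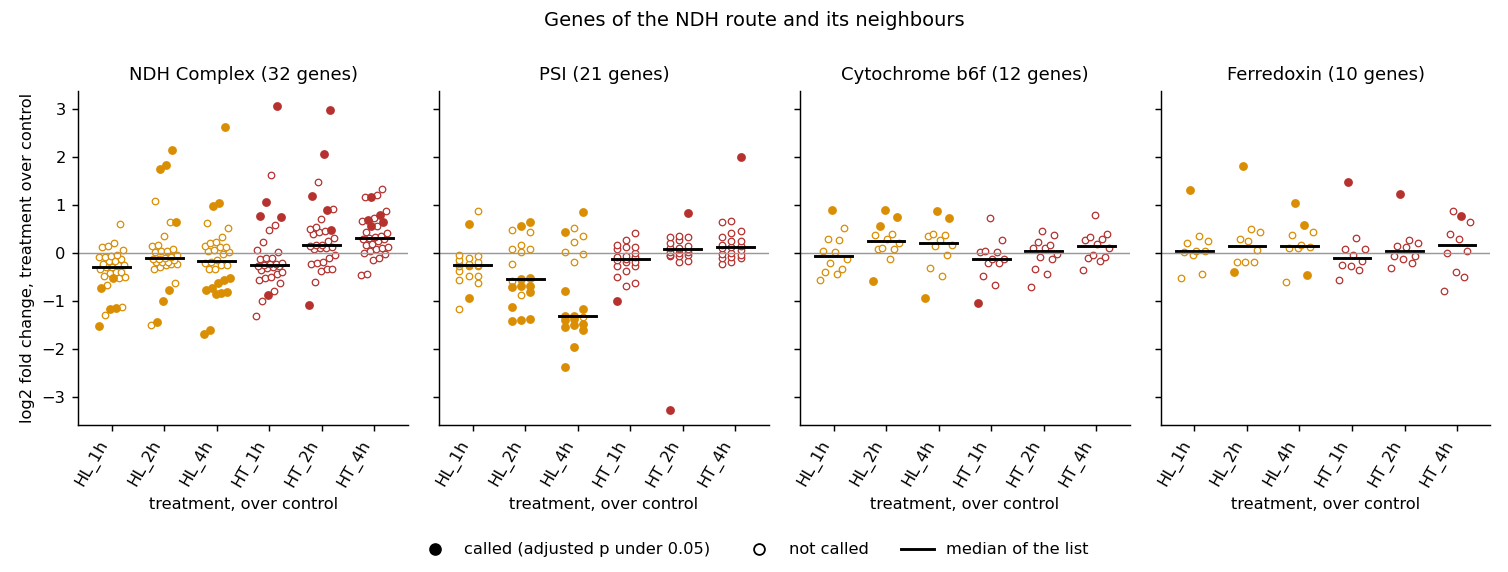
Log2 differences (edgeR, TMM scale) of every tested gene of the NDH, PSI, cytochrome b6f and ferredoxin lists against the control of the same time, for HL and HT leaves; each point is a gene, filled where adjusted p was below 0.05, and the bars mark list medians. The PSI list had a median of -1.31 in HL leaves at 4 h, while the NDH list held genes on both sides of 0.

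The last question was which genes had profiles like those of the 3 genes. Across the 10 condition means of log2(TPM + 1), Pearson's r was 0.67 between the 2 PGRL1 copies, -0.46 between PGR5 and PGRL1_A and -0.41 between PGR5 and PGRL1-B, as a description over 10 points, into which the depth and make-up of the same libraries enter. Among 154 genes of the study's light reaction lists, the profile of PGR5 was most like those of HCF173_B (r = 0.94), NdhU/CRRL (0.89) and CTPA (0.87). In Arabidopsis HCF173 promotes translation of the photosystem II reaction center protein D1, and CTPA processes it. PGRL1_A was most like CRR3 (0.82), PnsL4/FKB16-2 (0.78) and TIC2 (0.75), the first pair being NDH genes. CRR3 had low levels, with means from 1.42 TPM in HL_1h to 16.4 TPM in HT_4h leaves. PGRL1-B was most like LHCb4 (0.85), PsbW_B (0.83) and LHCa4 (0.80), which encode antenna proteins and a small photosystem II subunit. Among all 14290 other tested genes the closest were Sevir.2G188500 and Sevir.5G402700 for PGR5 (both 0.97), Sevir.9G123100 and Sevir.5G360400 for PGRL1_A (both 0.95), and Sevir.2G335000 and Sevir.7G125200 for PGRL1-B (both 0.94). Of these, Sevir.5G360400 and Sevir.7G125200 were scarce, with condition means of at most 5.28 and 4.08 TPM. With Spearman's correlation in place of Pearson's, 1 of 3 list genes stayed among the closest for PGR5, 0 of 3 for PGRL1_A and 2 of 3 for PGRL1-B.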

How the data were processed

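RNA was sequenced as QuantSeq 3′ tag libraries from 40 leaf samples of *S. viridis*. The authors trimmed reads with Trim Galore 0.6.2, quantified transcripts with Salmon 1.1.0 and tested with DESeq2. The deposited count table holds raw counts per gene, and the deposited TPM files hold TPM of single libraries, in which gene length plays no part because the tags are 3′ ends. Of 40 count columns 36 matched the TPM file of the library in their header. The other 4, all at 1 h, matched another library, and 1 of these, whose values belong to another condition than its header, was the 1 sample column not used. Another 1 h column shares its header with a second one, so 4 of the 39 columns used were tied to a condition only. Log2 fold changes were computed here and are not the deposited ones.

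Counts were tested with edgeR 4.0.16 (quasi-likelihood, TMM, R 4.3.3) in 1 fit of 10 condition means without covariates, with genes of at least 10 counts in at least 4 libraries. Benjamini-Hochberg adjustment ran over 14293 genes (14292 with the PGRL1 copies summed) within each contrast, and adjusted p below 0.05 was called. Standard errors came from the F statistic. Ratios of TPM were compared by exact two-sided permutation tests that enumerate all regroupings, checked on made-up values against scipy 1.17.1. Alternatives used DESeq2 1.42.0, limma 3.58.1 on log2(TPM + 1) or log2(TPM + 0.5), other scalings, other filters and leaving out libraries. Depth was 1422507 to 4901131 counts per column. Scripts were tested on simulated data. The labels name pooled plants per replicate but no separate experiments, so p-values measure the spread between these samples.

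The members and gene lists were chosen with earlier results of these data known. Named genes of a list are the 2 called genes with the largest rise and the 2 with the largest fall for each treatment at any time. For likeness they are the 3 list genes and the 2 of all tested genes with the highest Pearson correlation. Added to these are list members chosen after their values were seen (PnsB3/NDF4, NdhU/CRRL and NdhS). The lists and cell type marks come from the study's gene table. No sequence is printed, because the gene identifiers could not be matched to the reference table used here.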

Additional observations from a re-analysis of the deposited data

Results flagged for a closer look

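In 6 of 60 groups of 4 libraries 1 library lay far from the others by Dixon's test, which chance alone flags in about 1 of 20 groups. PGRL1_A had 1216 TPM in HT_2h D (the others 914 to 944), PGRL1-B had 813 TPM in HL_1h D (704 to 713), and PGRL1-B had 779 TPM in ctrl_2h B (918 to 937). The share of PGRL1 TPM from PGRL1-B was 56.9% in HT_1h D (the others 49.7 to 50.7%) and 46.6% in HT_4h A (40.2 to 41.0%), the HT_4h library that carries the index of the controls. PGR5 per summed PGRL1 was 0.132 in ctrl_4h A (the others 0.190 to 0.198).

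Of 24 tested changes of a treatment effect between times, 3 passed edgeR's test, all for PGRL1-B: the HT effect at 4 h against 1 h (-0.64), the HT effect at 4 h against 2 h (-0.63) and the HL effect at 4 h against 1 h (-0.73), on the log2 scale.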

How the results depend on the processing

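PGRL1-B stayed called lower in HL_2h (-0.51 to -0.35) and HL_4h leaves (-0.85 to -0.52) under all 11 alternatives run. Of 930 values under other settings 800 kept their direction and side of the threshold, 71 lost a call, 28 gained one, 25 counts moved by over 1.5 times and 6 reversed. The calls of PGR5 and PGRL1_A under high light depended on scaling, and their cause was not tested. With library totals alone, PGRL1_A had 0.40 at HT_1h, -0.24 at HL_2h and -0.067 at HL_4h, none called, while PGR5 was called higher with 0.31 at HL_2h and 0.28 at HL_4h. limma on log2(TPM + 1) gave -0.24 and -0.075 for PGRL1_A at HL_2h and HL_4h and called PGR5 with 0.31 and 0.29, and a pseudocount of 0.5 gave the same and lost the sum at HL_2h (-0.29). Over all genes above 0, limma also lost PGRL1_A at HT_1h (0.43) and the sum at HT_1h (0.36), HL_2h (-0.29) and HL_4h (-0.30). The index as covariate gave -0.27 and -0.19 for PGRL1_A at HL_2h and HL_4h, not called, and called PGR5 with 0.33 and 0.35.

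Without the filter these calls were lost: PGRL1_A at HT_1h (0.45), HT_4h (0.47), HL_2h (-0.37) and HL_4h (-0.42), PGR5 at HT_4h (0.40) and HL_1h (0.49), and the sum at HT_1h (0.40) and HL_2h (-0.43). Fitting only the compared groups lost PGRL1_A at HT_1h (0.44) and HL_4h (-0.42), PGR5 at HT_4h (0.40) and HL_1h (0.47), and the sum at HT_1h (0.39). Without the 4 columns tied to a condition only, HT_1h keeps 1 column, assumed to vary like the other groups, and HL_1h 2. PGRL1_A (0.43) and the sum (0.53) at HT_1h and PGR5 at HL_1h (0.45) did not pass there, which with so few columns says little about these calls. DESeq2 gained PGRL1-B at HT_1h (0.35) and HT_2h (0.34) and the sum at HT_2h (0.31). Of 11 alternatives, 8 lost the change of the HT effect on PGRL1-B between 1 h and 4 h, 10 that between 2 h and 4 h, and 8 the change of its HL effect between 1 h and 4 h, while for PGR5 in HL against HT leaves 7 gained a call at 1 h and 6 lost that at 4 h. Leaving out each library in turn gave 0.36 to 0.56 for PGRL1_A at HT_1h, 0.27 to 0.43 for PGRL1-B at HT_1h, 0.36 to 0.48 for the sum at HT_1h, 0.25 to 0.42 for PGRL1-B at HT_2h, 0.45 to 0.57 for PGRL1_A and 0.29 to 0.53 for PGR5 at HT_4h, 0.42 to 0.52 for PGR5 at HL_1h, and -0.41 to -0.31 and -0.49 to -0.34 for PGRL1_A at HL_2h and HL_4h.

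Replicate letters did not pair the samples, since 8 of 36 same-letter pairs had deviations correlated above 0.1 (range -0.22 to 0.25) and 9 of 36 libraries correlated best with their own letter. With the replicate block in limma PGRL1_A had 0.43 at HT_1h, -0.24 at HL_2h and -0.075 at HL_4h, the sum -0.29 at HL_2h, none called, and PGR5 0.31 at HL_2h and 0.29 at HL_4h, both called.

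For list counts, DESeq2 called 3 NDH genes lower at HT_1h and 8 higher at HT_4h, 1 cytochrome b6f gene higher at HT_2h and at HT_4h and 2 lower at HL_4h, and 2 ferredoxin genes higher at HT_4h and at HL_2h. Library totals, chosen for the lists after seeing the data, called 4 NDH genes lower at HT_1h, 9 higher at HT_4h, and 7 higher and 5 lower at HL_4h. They called 4 PSI genes higher at HL_4h, 1 cytochrome b6f gene higher at HT_4h, 0 lower at HL_2h and 6 higher at HL_4h, and 2, 3 and 5 ferredoxin genes higher at HT_4h, HL_2h and HL_4h with 0 lower at HL_2h and HL_4h. The shares of all tested genes called were not counted with DESeq2 or library totals. The planned fits on whole reads recovered from TPM (plain, with the index, with the block, and for list counts) were not run, because whole reads could not be recovered from every file. The limma fits with index or block and the fit without 4 columns were added after seeing the data.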
